A study of Homo sapiens with 16 samples.

Results

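The BCL2 family was described here through 10 genes chosen by name, with BCL2, BCL2L1 and MCL1 as its pro-survival members, BAX as the effector, and BCL2L11, BBC3, PMAIP1, BID, BAD and BIK as BH3-only members. Each member was looked up by its Entrez identifier in the gene expression tables of LN229 cells, and 9 of the 10 had values in both. The table of the experiment without compounds holds 13559 genes, and that of the experiment with compounds 14024. BIK was not analysed here. The text therefore covers 3 pro-survival and 6 pro-death members.

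Proteins of the BCL2 family decide whether the outer mitochondrial membrane is opened during apoptosis. Pro-survival members hold the effectors BAX and BAK1 in check, and BH3-only proteins promote the opening by binding pro-survival members or by engaging the effectors directly. Several BH3-only genes are known to be transcribed in response to stress, among them BBC3 (PUMA) and PMAIP1 (NOXA) through p53 or ATF4 and BCL2L11 (BIM) through FOXO factors, whereas other members are controlled largely on the protein, which RNA levels do not show.

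LN229 is a glioblastoma (GBM) cell line, and the study asked how such cells respond to ischemia and what p38 signaling contributes. In the first experiment, untreated LN229 cells were kept in regular culture (DMEM with 10% fetal bovine serum) or under the ischemic condition (2 mM glucose, 0.1 mM glutamine, 1% serum and about 1% oxygen). In the second, cells received the vehicle DMSO, the p38α inhibitor VX745 or the inhibitor MK25, which acts on MK2, a kinase downstream of p38, in each of both cultures. This gave 8 groups with 2 libraries each, 16 libraries in all, of 1 cell line with no further genetic change. The methods of the study list VX745 at 2 µM and MK25 at 10 µM without saying for which assay, and the time that the sequenced cells spent under the ischemic condition is not given in the sources used here. The methods speak of independent experiments for work in culture in general, but no source says so for these libraries, so all p-values measure the spread between these libraries, which may be technical. In bulk RNA, a change within cells and a change in which cells survive cannot be told apart.

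Each library held between 20122017 and 37562668 reads on the listed genes, and the lowest count of any member in any library was 73 reads, for BBC3 in regular DMSO. Values are log2 normalized CPM (reads scaled to a common depth), and the experiments were normalized separately, so levels were compared within an experiment. In untreated regular culture the glial and stem cell markers NES, VIM and CD44 were high (mean log2 of 9.81, 11.37 and 9.66), SOX2 was at 6.47, and GFAP, the defining astrocyte filament, was low at 0.95. The hypoxia gene CA9 followed the culture labels, with log2 values of -1.62 and -1.94 in regular and 7.64 and 7.70 in ischemic culture, but it also differed between regular groups of the second experiment. CA9 stood at 2.14 and 2.30 in regular MK25 libraries, above -1.77 and 0.27 in regular DMSO libraries.

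To compare genes, levels were set per kilobase of exon. MCL1 was the most abundant member in every group. It was at 57.9 CPM per kb against 43.4 for BAX in regular VX745, and at 124 against 36.2 in ischemic VX745. In regular culture of the first experiment MCL1 was at 62.7 ± 0.576 CPM per kb (SD, n = 2), ahead of BAX at 43.5 ± 0.836, BCL2L1 at 28.0 ± 0.585, BAD at 19.98 ± 2.03 and PMAIP1 at 16.8 ± 1.99. The other members were scarce, with BID at 4.83 ± 0.252, BCL2L11 at 2.99 ± 0.177, BCL2 at 1.93 ± 0.0583 and BBC3 at 0.956 ± 0.0691 CPM per kb. No neighbours in this order overlapped between replicates. The order also depends on the length used, which takes in all annotated exons of a gene, 12.6 kb for BCL2. Without division by length BCL2 stood above BID and BCL2L11, at mean log2 values of 4.61, 4.42 and 4.34. In regular DMSO the order was the same except for BAD and PMAIP1, whose replicates overlapped.

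The ischemic condition changed the order at its lower end. BBC3 moved from the last place to the sixth, at 5.10 ± 1.27 CPM per kb, above BID at 1.72 ± 0.197, BCL2 at 1.28 ± 0.0250 and BCL2L11 at 1.10 ± 0.225. In ischemic DMSO cells BBC3 likewise ranked above BID, BCL2L11 and BCL2, at 4.79 ± 0.343 CPM per kb. The stacked levels by group show that MCL1, BCL2L1, BAX, PMAIP1 and BAD made up most of the family's RNA in both cultures.

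**Figure D1:**
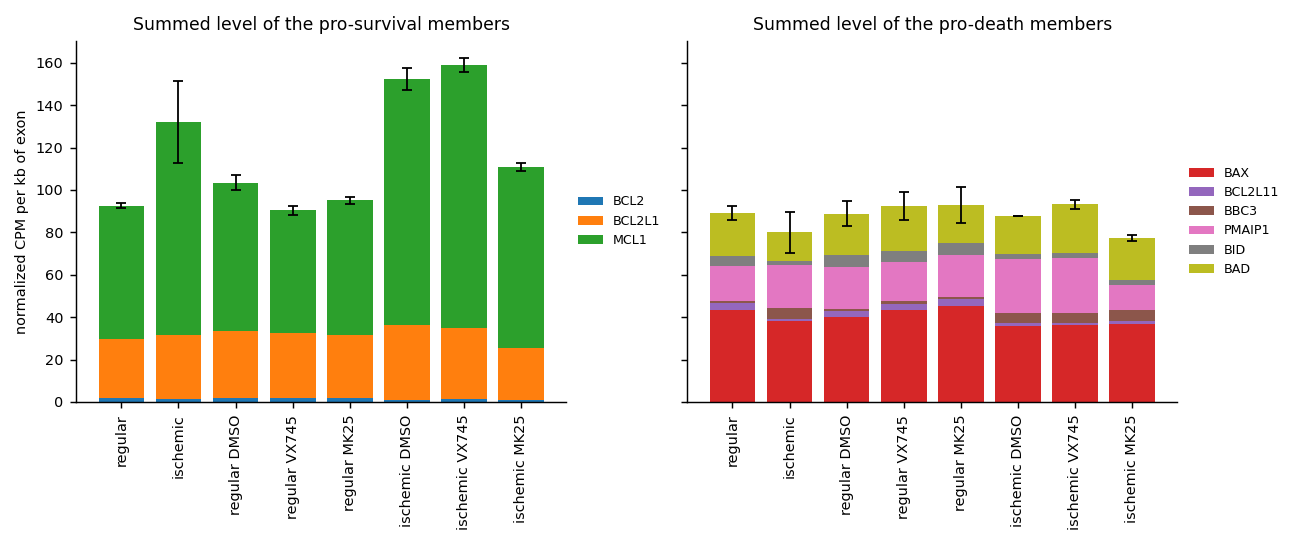
Level of each member in normalized CPM per kb of exon (vertical axis, stacked means of 2 libraries), pro-survival members on the left and pro-death members on the right, in the 8 groups. Error bars are the SD of the sum over 2 libraries. The pro-survival sum stood at 92.6 in regular and 132 in ischemic untreated cells, and it was lower in ischemic MK25 cells (111) than in ischemic DMSO cells (152).

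The sequences below lie upstream of the start sites of 4 members that the results turn on, and they were taken from RefSeq (GRCh38.p14), written 5′ to 3′ on the strand of the gene. They are BBC3, which rose most under the ischemic condition, BAX, whose promoter holds the most matches, and PMAIP1 and BCL2L11, which MK25 moved in opposite directions. Capitals mark the letters ACGTG, a form of the core of the site that hypoxia-inducible factors are known to bind, on either strand. Other forms of that core were neither marked nor counted. Where the capitals read CACGTG, a match on one strand overlaps a match on the other.
BBC3 (chr19:47232668-47232917, minus strand): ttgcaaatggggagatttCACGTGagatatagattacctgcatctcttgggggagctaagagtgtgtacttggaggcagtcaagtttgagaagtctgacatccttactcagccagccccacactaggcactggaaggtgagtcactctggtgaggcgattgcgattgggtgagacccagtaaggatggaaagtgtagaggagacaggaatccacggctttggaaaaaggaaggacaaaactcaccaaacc
BAX (chr19:48954625-48954874, plus strand): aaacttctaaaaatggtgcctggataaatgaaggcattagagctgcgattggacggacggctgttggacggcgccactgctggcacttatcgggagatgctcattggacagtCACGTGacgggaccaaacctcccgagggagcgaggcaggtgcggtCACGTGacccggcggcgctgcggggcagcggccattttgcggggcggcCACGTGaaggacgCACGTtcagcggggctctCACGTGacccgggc
BCL2L11 (chr2:111120664-111120913, plus strand): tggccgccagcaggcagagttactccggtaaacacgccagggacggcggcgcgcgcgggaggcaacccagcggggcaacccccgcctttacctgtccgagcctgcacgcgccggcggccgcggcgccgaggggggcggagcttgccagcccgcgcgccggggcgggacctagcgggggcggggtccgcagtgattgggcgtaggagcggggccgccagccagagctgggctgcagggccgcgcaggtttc
PMAIP1 (chr18:59899746-59899995, plus strand): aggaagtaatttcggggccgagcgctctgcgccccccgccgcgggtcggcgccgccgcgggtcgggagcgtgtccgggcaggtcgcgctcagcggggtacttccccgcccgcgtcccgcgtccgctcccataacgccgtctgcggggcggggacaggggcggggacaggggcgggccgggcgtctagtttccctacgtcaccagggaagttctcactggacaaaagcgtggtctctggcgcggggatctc

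Over windows of 300 bases around the start site, 21.4% of the 35116 promoters in the RefSeq table held ACGTG on at least 1 strand. Of 14 promoters found for 8 members, 4 held it, which belong to BBC3, BAX and BID, and those of BID overlap each other. BBC3 held 1 palindrome CACGTG, and BAX held 4 of them and 1 further single match. The composite site of ATF4 and C/EBP factors, TGATGNAAN, was present in 3.61% of all promoters and in 0 of the 14, and the E2F core TTCGCGC in 2.24% and in 0 of the 14, each on both strands. Of the 3 members with a match, BBC3 rose and BAX and BID fell under the ischemic condition, as described next. MCL1 had no promoter in the RefSeq table. A link between matches and changes in RNA was not tested. A match is a description of letters and not a site of binding.

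**Figure D2:**
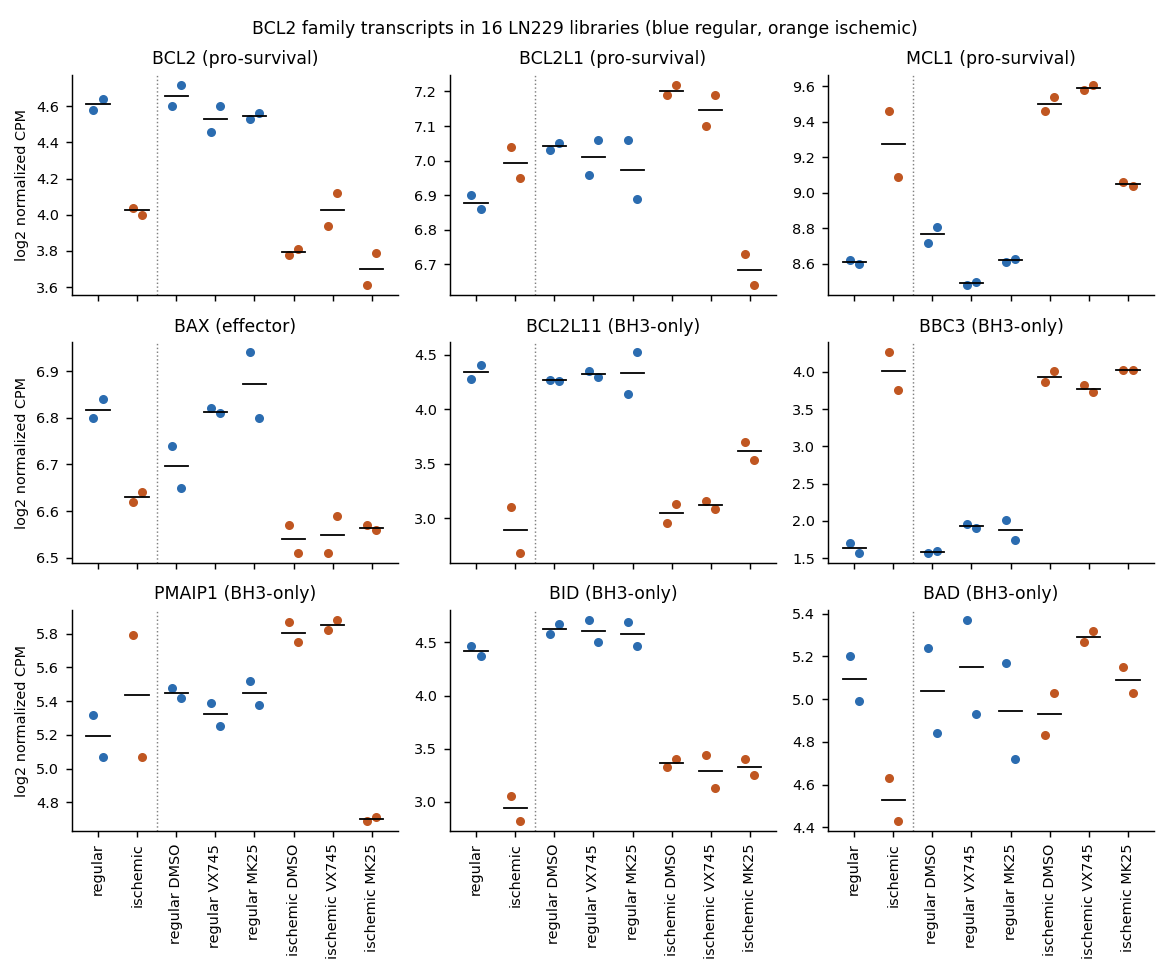
Log2 normalized CPM (vertical axes, each on its own range) of 9 members in 16 libraries. Points are libraries, bars are means of 2, blue is regular and orange ischemic culture, and the dotted line separates the experiments. BBC3 and MCL1 are higher and BCL2, BAX, BCL2L11 and BID lower in every ischemic group than in its regular counterpart, and PMAIP1 and BCL2L1 are lowest in ischemic MK25 cells.

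The ischemic condition moved the family in both directions, and pro-survival and pro-death genes did not separate by direction. BBC3 and MCL1 rose in untreated cells and in cells with DMSO, VX745 or MK25, whereas BCL2, BAX, BCL2L11 and BID fell in all 4. In untreated cells 2 of the 9 members rose and 5 fell, at an adjusted p under 0.05 in limma. Over all genes of that comparison 35.2% rose and 35.2% fell, so calls among the members were about as frequent as among all genes. With DMSO 4 members rose and 4 fell, beside 34.4% and 35.2% of all genes.

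BBC3 encodes PUMA, a BH3-only protein that binds all pro-survival members. In untreated cells it was at 1.71 and 1.57 in regular and 4.26 and 3.75 in ischemic culture, on the log2 scale. With DMSO it was at 1.57 and 1.60 in regular and 3.86 and 4.01 in ischemic culture. Every ischemic library was above every regular one, by a log2 fold change of 2.36 ± 0.172 (SE) in untreated cells, a 5.14-fold rise (limma, adjusted p = 1.28e-07). The rise with DMSO was 5.11-fold, a log2 fold change of 2.35 ± 0.122 (limma, adjusted p = 1.52e-11), and in VX745 and MK25 cells it was 3.58-fold and 4.44-fold.

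MCL1, a short-lived pro-survival protein that binds BIM and NOXA, also rose in each treatment. Its log2 values were 8.62 and 8.60 in regular and 9.46 and 9.09 in ischemic untreated libraries. With DMSO they were 8.72 and 8.81 in regular and 9.46 and 9.54 in ischemic libraries. Regular and ischemic libraries did not overlap, and the rise was 1.59-fold in untreated cells (limma, adjusted p = 6.15e-05) and 1.66-fold with DMSO (limma, adjusted p = 1.46e-09). With VX745 it was 2.14-fold and with MK25 1.34-fold, the smallest of the 4.

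BID, which links death receptors to mitochondria once caspase-8 has cut it, fell most. Its untreated values were 4.47 and 4.37 in regular and 3.05 and 2.82 in ischemic libraries, which is 2.79-fold lower (limma, adjusted p = 3.37e-07). With DMSO they were 4.58 and 4.67 in regular and 3.33 and 3.40 in ischemic libraries, 2.40-fold lower. The groups were well apart, and with VX745 and MK25 the fall was 2.49-fold and 2.38-fold.

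BCL2L11 encodes BIM, a BH3-only protein that engages both pro-survival members and effectors. Untreated libraries were at 4.28 and 4.40 in regular and 3.10 and 2.68 in ischemic culture, and DMSO libraries at 4.27 and 4.26 against 2.96 and 3.13. It was 2.73-fold lower in untreated ischemic cells (limma, adjusted p = 1.71e-06) and 2.33-fold lower with DMSO (limma, adjusted p = 5.11e-08). The fall was 2.29-fold with VX745 and 1.64-fold with MK25. Ischemic and regular libraries did not overlap in any treatment.

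BCL2, the founding pro-survival gene of the family, moved opposite to MCL1. Its log2 values were 4.58 and 4.64 in regular and 4.04 and 4.00 in ischemic untreated libraries, and 4.60 and 4.72 against 3.78 and 3.81 with DMSO. It fell by 0.59 on the log2 scale in untreated cells (limma, adjusted p = 0.000141), and was 1.82-fold lower with DMSO, 1.41-fold lower with VX745 and 1.80-fold lower with MK25. BAX, which like BAK1 is an effector that forms pores in the membrane, fell slightly. In untreated cells it fell by 0.19 on the log2 scale (limma, adjusted p = 0.0248), from 6.80 and 6.84 to 6.62 and 6.64. With DMSO it fell by 0.16 (limma, adjusted p = 0.0284), and the call was lost without regular replicate 1, where the log2 fold change was -0.11, and without ischemic replicate 2, where it was -0.13. In untreated cells the call for BAX was lost without regular replicate 1, regular replicate 2 or ischemic replicate 1, at log2 fold changes from -0.21 to -0.17.

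The other members had no common direction. BAD, a BH3-only protein kept inactive by phosphorylation, was at 5.20 and 4.99 in regular and 4.63 and 4.43 in ischemic untreated libraries, 1.48-fold lower (limma, adjusted p = 0.000349). With DMSO its replicates overlapped, at 5.24 and 4.84 in regular and 4.83 and 5.03 in ischemic libraries, and the log2 fold change was -0.11 with a 95% interval from -0.42 to 0.20. GPR137, on the opposite strand, overlaps 23.7% of the BAD exon bases, and its own log2 fold change was -0.19 in untreated and -0.17 in DMSO cells. BCL2L1, which encodes the pro-survival protein BCL-XL, was at 6.90 and 6.86 in regular and 7.04 and 6.95 in ischemic untreated libraries, and the log2 fold change of 0.12 did not pass (limma, adjusted p = 0.149). With DMSO it rose by 0.16 (limma, adjusted p = 0.0350), a call that was lost without any 1 of the 4 libraries compared and with quantile normalization, at 0.06, and with VX745 the value of 0.14 did not pass (limma, adjusted p = 0.0667).

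PMAIP1 encodes NOXA, a BH3-only protein that binds mainly MCL1. In untreated cells it was at 5.32 and 5.07 in regular and 5.79 and 5.07 in ischemic libraries, so the ischemic replicates were farther apart than the group means, and the log2 fold change was 0.24 (limma, adjusted p = 0.234). Without ischemic replicate 1 it was -0.12, and without ischemic replicate 2 it was 0.60. With DMSO it rose 1.28-fold, from 5.48 and 5.42 to 5.87 and 5.75 (limma, adjusted p = 0.000289), and with VX745 1.44-fold. With MK25 it was 1.68-fold lower in ischemic than in regular culture (limma, adjusted p = 7.22e-08), the opposite direction. Untreated ischemic replicate 1 was also the higher library for every other member except BAX, at 6.62 and 6.64. The margin was small for BCL2, at 4.04 and 4.00. Without ischemic replicate 1, MCL1 rose by 0.48 on the log2 scale.

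In cells with VX745, 3 members rose and 4 fell under the ischemic condition, beside 34.0% and 32.6% of all genes. In cells with MK25, 2 rose and 6 fell, beside 33.5% and 33.7%. BCL2L1 was the member with opposite calls along with PMAIP1, since with MK25 it fell by 0.29 on the log2 scale (limma, adjusted p = 0.000673). BAD had log2 fold changes of 0.14 and 0.15 with VX745 and MK25, neither of which passed. Each of these comparisons has its own pair of groups, so the values stand side by side, and the difference between treatments was tested with the interaction terms below.

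**Figure D3:**
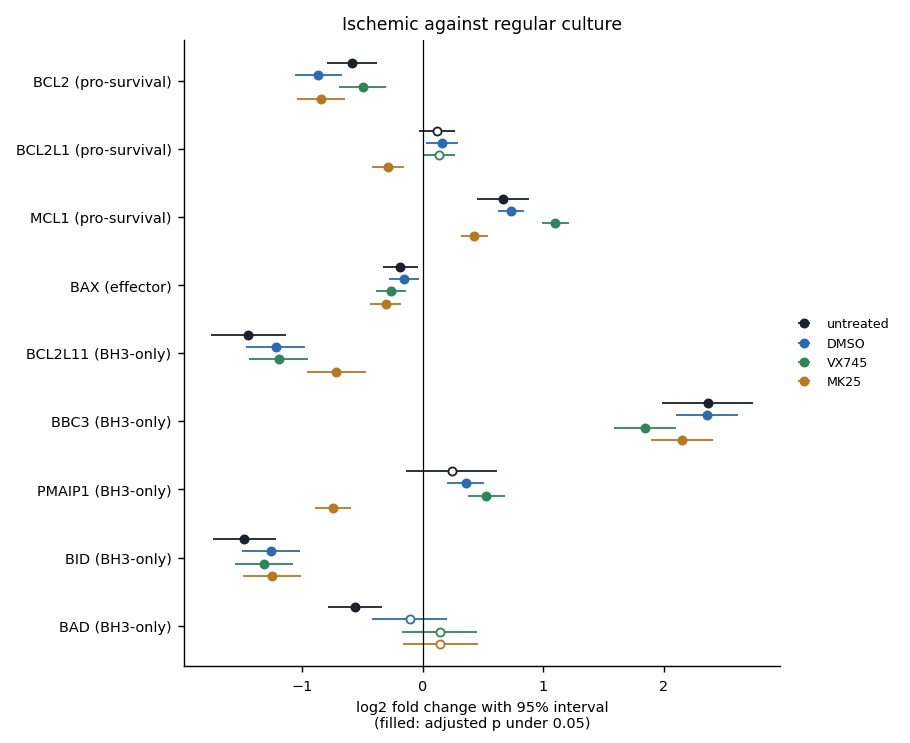
Log2 fold change between ischemic and regular culture (horizontal axis) with its 95% interval for 9 members, in untreated cells and with DMSO, VX745 or MK25. Filled points passed an adjusted p of 0.05. BBC3 lies between 1.84 and 2.36 and BID between -1.48 and -1.25, while PMAIP1 runs from -0.75 with MK25 to 0.53 with VX745.

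MK25 changed 4 members under the ischemic condition. Compared with ischemic DMSO cells, PMAIP1, BCL2L1 and MCL1 were lower and BCL2L11 was higher, whereas BBC3, BID, BCL2, BAX and BAD did not pass. Both calls among pro-survival members were falls, and the BH3-only calls went in both directions. Over all genes 19.8% rose and 22.0% fell, against 1 and 3 of 9 members. Calls in either direction were thus about as frequent among the members as among all genes.

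PMAIP1 had the largest difference. It was at 5.87 and 5.75 in ischemic DMSO and 4.69 and 4.71 in ischemic MK25 libraries, 2.15-fold lower, a log2 fold change of -1.10 ± 0.0720 (SE; limma, adjusted p = 6.51e-09). The MK25 values were also below every regular library of that experiment, the lowest of which was at 5.25. BCL2L1 was at 7.19 and 7.22 with DMSO and 6.73 and 6.64 with MK25, 1.43-fold lower (limma, adjusted p = 7.80e-06), and again below every regular library.

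MCL1 was at 9.46 and 9.54 in ischemic DMSO and 9.06 and 9.04 in ischemic MK25 libraries, 1.36-fold lower (limma, adjusted p = 5.19e-06). Unlike PMAIP1 and BCL2L1, it stayed above its regular libraries, which lay between 8.48 and 8.81. BCL2L11 was at 2.96 and 3.13 with DMSO and 3.70 and 3.53 with MK25, 1.48-fold higher (limma, adjusted p = 0.000916), and still below all regular libraries. Groups did not overlap for any of these 4 members, and all 4 calls were kept when each of the 12 libraries was left out in turn.

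The intervals of the members that did not pass included 0. BBC3 was at 4.02 and 4.03 with MK25 against 3.86 and 4.01 with DMSO, a log2 fold change of 0.09 with a 95% interval from -0.17 to 0.35. For BID the value was -0.04 (-0.28 to 0.20), for BCL2 -0.09 (-0.29 to 0.10), for BAX 0.02 (-0.10 to 0.15) and for BAD 0.16 (-0.15 to 0.47). Exons of BCL2L11 and of the long noncoding RNA MIR4435-2HG, on the opposite strand, share 10.8% of the BCL2L11 exon bases, and MIR4435-2HG fell by 0.64 on the log2 scale with MK25 (limma, adjusted p = 4.27e-06) while BCL2L11 rose. Of the BCL2L1 exon bases 41.3% overlap the antisense RNA ABALON, which was not analysed here, and since no source states that strand was counted, their reads cannot be told apart.

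With VX745 under the ischemic condition 0 of the 9 members passed in limma, beside 14.0% of all genes higher and 14.9% lower. Those calls over all genes, 1958 higher and 2093 lower, dropped to 1093 and 1098 without ischemic VX745 replicate 1, 1197 and 1117 without replicate 2, and 1234 and 1162 without ischemic DMSO replicate 1. At an unadjusted p under 0.05 there were 2, BAD with a log2 fold change of 0.36 (limma, adjusted p = 0.0736) and BCL2 with 0.24 (limma, adjusted p = 0.0649). With voom on the recovered reads the count was also 0, with quantile normalization MCL1 alone passed, at 0.32, and with only the groups compared in the fit BAD alone did. PMAIP1 was at 5.82 and 5.88 with VX745, within 0.19 log2 units of DMSO by the upper end of its 95% interval, and MCL1 was at 9.58 and 9.61, with an interval from -0.02 to 0.20. BCL2L1 had 7.10 and 7.19, and its interval ran from -0.19 to 0.08, so that falls as large as those with MK25 lay outside these intervals.

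The inhibitors were also set against each other under the ischemic condition, at different concentrations where the methods give them. PMAIP1 was 2.22-fold, MCL1 1.46-fold, BCL2L1 1.38-fold and BCL2 1.26-fold lower with MK25 than with VX745, and BCL2L11 was 0.49 log2 units higher. Adjusted p in limma ran from 5.13e-09 for PMAIP1 to 0.0191 for BCL2. This made 1 member higher and 4 lower, beside 8.22% and 10.2% of all genes. The calls for BCL2 and BCL2L11 were lost without ischemic VX745 replicate 2 or ischemic MK25 replicate 1, with log2 fold changes of -0.24 for BCL2 in each case and of 0.45 and 0.40 for BCL2L11.

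**Figure D4:**
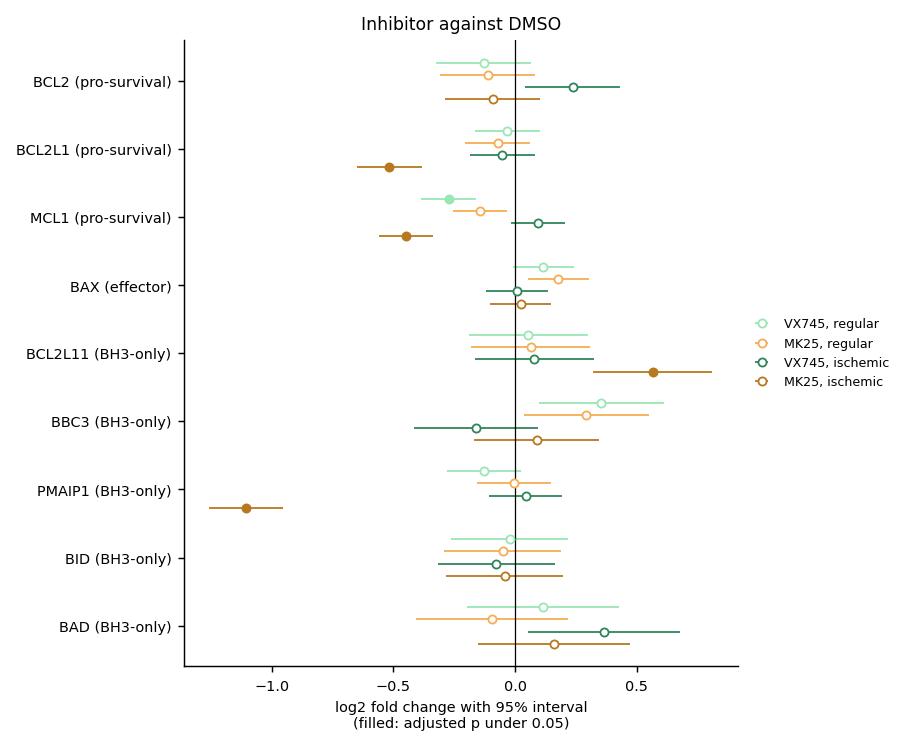
Log2 fold change of VX745 or MK25 against DMSO (horizontal axis) with its 95% interval, in regular (light) and ischemic (dark) culture. Filled points passed an adjusted p of 0.05. With MK25 under the ischemic condition PMAIP1 (-1.10), BCL2L1 (-0.52) and MCL1 (-0.45) lie left of 0 and BCL2L11 (0.57) right of it, and in regular culture the only filled point is MCL1 with VX745 (-0.27).

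In regular culture the inhibitors moved few members. With VX745, 0 members rose and 1 fell, beside 0.178% and 0.157% of all genes, which is 25 and 22 genes, and those counts ran from 3 and 7 without regular DMSO replicate 2 to 208 and 138 without regular DMSO replicate 1. That member was MCL1, at 8.72 and 8.81 with DMSO and 8.48 and 8.50 with VX745, 1.21-fold lower (limma, adjusted p = 0.0348), and the call was lost without regular DMSO replicate 2, either regular VX745 library, or any 1 ischemic VX745 or MK25 library, at log2 fold changes from -0.28 to -0.23. With MK25 none of the 9 members passed in limma, beside 7.0% of all genes higher and 5.21% lower, with 0 in voom and 3 at an unadjusted p under 0.05. These were MCL1 at -0.14, BBC3 at 0.29 and BAX at 0.18 on the log2 scale, with adjusted p in limma of 0.0840, 0.126 and 0.0622. PMAIP1 was at 5.52 and 5.38 with MK25 and 5.48 and 5.42 with DMSO, and the replicates overlapped. Between MK25 and VX745 in regular culture 0 members passed in limma and in voom, beside 3.96% of all genes higher and 1.43% lower, and 1 did at an unadjusted p under 0.05, MCL1 at 0.13.

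The effect of MK25 on PMAIP1, BCL2L1, MCL1 and BCL2L11 differed between the cultures, by the interaction term in limma. The interaction was -1.10 ± 0.102 (SE) for PMAIP1 (limma, adjusted p = 1.37e-06), -0.45 ± 0.0897 for BCL2L1 (limma, adjusted p = 0.00176), -0.30 ± 0.0749 for MCL1 (limma, adjusted p = 0.00700) and 0.50 ± 0.164 for BCL2L11 (limma, adjusted p = 0.0335). Over all genes 10.5% had a positive and 13.9% a negative interaction with MK25. For VX745 the interaction passed for MCL1 at 0.37 ± 0.0749 (limma, adjusted p = 0.00568), positive like 5.78% of all genes, and for 0 members in the negative direction, beside 6.0%. Both MCL1 values with VX745 were below both DMSO values in regular and above them in ischemic culture.

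With quantile normalization the interaction with MK25 was -0.06 for MCL1 and 0.39 for BCL2L11, and neither passed. BCL2L11 also lost its call with no trend of the variance, with only the groups compared, and without either regular DMSO replicate, regular MK25 replicate 1, ischemic DMSO replicate 1 or ischemic MK25 replicate 1, at values from 0.31 to 0.51. The regular MK25 libraries carried more RNA of genes known to respond to hypoxia, among them CA9, VEGFA (0.92 higher than DMSO on the log2 scale) and ANGPTL4 (0.96 higher), and the part of this in the interaction was not tested.

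The balance of the family was described by its summed levels, without a test. The sum over the 3 pro-survival members divided by that over the 6 pro-death members, in CPM per kb, was 1.04 ± 0.0265 (SD, n = 2) in regular and 1.65 ± 0.0427 in ischemic untreated cells. With DMSO it was 1.17 ± 0.119 in regular and 1.74 ± 0.0632 in ischemic culture. With VX745 it was 0.983 ± 0.0929 in regular and 1.71 ± 0.00354 in ischemic culture, and with MK25 1.03 ± 0.0755 and 1.43 ± 0.00158. MCL1 made up most of the pro-survival sum in each group, 62.7 of 92.6 CPM per kb in regular untreated cells.

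A mean of log2 values, in which each gene counts alike, gave another picture. The pro-survival mean exceeded the pro-death mean by 2.11 ± 0.0635 log2 units in regular and 2.36 ± 0.124 in ischemic untreated cells, but by 2.21 ± 0.105 and 2.23 ± 0.0130 with DMSO. With VX745 it was 1.99 ± 0.167 in regular and 2.28 ± 0.106 in ischemic culture, and with MK25 2.04 ± 0.0698 and 1.93 ± 0.0636. Between regular and ischemic MK25 cells the ratio of sums was thus higher and the difference of means lower. Both measures were lower with MK25 than with DMSO in ischemic culture. In regular culture both were lower with MK25 and with VX745 than with DMSO, but the nearest libraries lay close together. Their ratios of sums were 1.09 and 1.25 with DMSO, 0.973 and 1.08 with MK25, and 0.917 and 1.05 with VX745.

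Other genes of the BCL2 family were measured as well. BNIP3 and BNIP3L, mitochondrial BH3-like proteins that act in mitophagy, rose 4.16 and 3.90 log2 units in untreated and 4.24 and 3.67 in DMSO cells. BNIP3 was at 5.24 and 5.04 in regular DMSO, 7.09 and 6.99 in regular MK25, and 9.38 and 9.39 in ischemic DMSO libraries. In regular culture MK25 raised BNIP3 by 1.90 and BNIP3L by 1.63 log2 units, along with CA9. BCL2L2, the pro-survival gene of BCL-w, rose by 1.22 in untreated and 1.29 in DMSO cells, and it shares 16.8% of its exon bases with BCL2L2-PABPN1, so its reads are uncertain.

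BMF is another BH3-only gene. It was at 2.44 and 2.37 in regular DMSO, 0.96 and 1.23 in ischemic DMSO, 1.76 and 1.65 in ischemic VX745 and 1.96 and 2.0 in ischemic MK25 libraries. The fall with DMSO was 1.31 log2 units, and under the ischemic condition VX745 and MK25 raised it by 0.61 and 0.89 (limma, adjusted p = 0.00637 and 0.000187). BCL2A1, a pro-survival target of NF-κB, went in opposite directions between experiments, -0.71 in untreated and 0.95 in DMSO cells, and VX745 raised it by a further 0.95 under the ischemic condition, to 4.16 and 4.32. BAK1, the other effector, fell by 0.52 in untreated and 0.35 in DMSO cells, and BCL2L15 was close to the limit of detection in ischemic MK25 cells, with 3 and 11 reads.

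**Figure D5:**
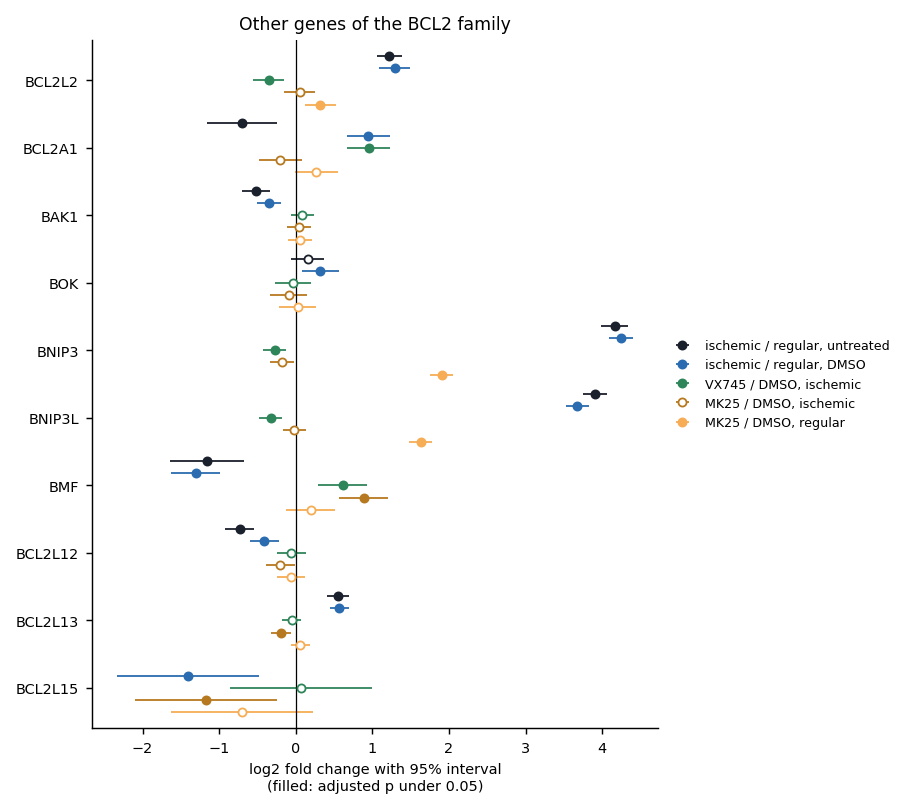
Log2 fold change (horizontal axis) with its 95% interval for 10 further genes of the BCL2 family in 5 comparisons. Filled points passed an adjusted p of 0.05. BNIP3 and BNIP3L lie near 4 for the ischemic condition and above 1.5 for MK25 in regular culture, and BMF lies left of 0 for the ischemic condition and right of 0 for both inhibitors.

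Upstream of the members, a list of 12 transcription factors and regulators known to act on BH3-only genes was followed. Of these 9 rose and 2 fell under the ischemic condition with DMSO, beside 34.4% and 35.2% of all genes, and the median log2 fold change was 1.39, against -0.01 over all genes. TRIB3, a pseudokinase, rose by 4.02, MYC by 1.93, DDIT3 (CHOP) by 1.84, ATF4 by 1.77, ATF3 by 1.69 and JUN by 1.63. Under the ischemic condition MK25 lowered 9 of the 12 and raised 3, beside 22.0% and 19.8% of all genes, with MYC at -1.20, ATF3 at -0.98 and JUN at -0.59. VX745 lowered 4 and raised 1 there, beside 14.9% and 14.0%, with DDIT3 at -0.90 and JUN at 0.79. Known p53 targets had no common direction, with 6 of 16 higher and 5 lower with DMSO, shares near those over all genes, led by SESN2 at 2.45, GADD45A at 1.67 and CDKN1A at 1.49. With MK25 under the ischemic condition 7 of the 16 rose and 6 fell, with SESN2 at -1.57, AEN at -0.74 and TP53INP1 at 1.02, and with VX745 6 rose and 6 fell, with GADD45A at 0.71 and PHLDA3 at 0.62.

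Downstream, 3 of 11 apoptosome and caspase genes rose and 6 fell under the ischemic condition with DMSO, again beside 34.4% and 35.2% of all genes. APAF1, the scaffold of the apoptosome, rose by 1.37 and CASP9, its initiator caspase, by 0.58, whereas CYCS, the gene of cytochrome c, fell by 0.94. Among 5 measured inhibitor of apoptosis genes 1 rose with DMSO, BIRC3 at 1.62, and 2 fell, whereas 3 rose and 1 fell in untreated cells. In the death receptor pathway 4 of 8 measured genes rose and 2 fell, with the receptor TNFRSF10B at 1.31 and FAS at 0.58 and the adaptor FADD at -1.24. No gene of these last 3 lists was called for an inhibitor at 1.5-fold or more under the ischemic condition.

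Over the 12 libraries of the second experiment, the genes closest to the 3 most variable members were found by Pearson r, as a description only, since all points share the 2 cultures. For BBC3 they were MT1X, SLAMF9 and FKBP9 (r from 0.994 to 0.996), for BID they were NADK, SLC27A4 and ZMYND19 (r = 0.992 for each), and for BCL2L11 they were KCTD21, GDF11 and SNN (r from 0.983 to 0.988).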

How the data were processed

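RNA of 16 LN229 libraries was converted with the SMART-Seq mRNA HT and Nextera XT kits and sequenced paired-end on an Illumina NovaSeq. In Galaxy, the authors trimmed and mapped the reads (HISAT2, GRCh38) and counted them per gene. The values deposited are log2 normalized CPM, with 1 table per experiment. The submitters' processing notes also name edgeR, and the strand setting of the counting is not given in the sources used here. The deposited log2 values were used as they are, with no further normalization, pseudocount or filter.

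Once the logarithm was undone, 100% of the values in every library lay within 0.02 of whole reads after a constant offset was removed, and these reads gave the depth. Libraries of a group were not copies of each other: their reads differed beyond counting error, at 3.29 to 9.40 chi-square units per gene. Intervals cover the spread between libraries. Comparisons were fitted with limma 3.58.1 (R 4.3.3) with 1 mean per group and a trend of the variance on the level, over the 4 libraries of the first and all 12 of the second experiment. Count tests were not the main test since the values are normalized and log2-transformed. P-values are two-sided, were adjusted by Benjamini-Hochberg over all genes of a table, and a gene was called at an adjusted p under 0.05 at any fold. There were 12 comparisons. Those within an experiment share groups, for example the ischemic DMSO libraries.

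The members, 11 lists of genes and tests were chosen with earlier results of these data known. All members were named. Of a list, up to 6 genes were eligible to be named, those with the largest fold among calls for the ischemic condition with DMSO, plus those called for an inhibitor at 1.5-fold under it. Levels per kb used the exons of GENCODE 44, and symbols, sequences and promoters came from RefSeq. In simulated data, genes raised by 0.5 on the log2 scale were called in 35 of 50 cases in the first experiment and 31 of 50 in the second (ischemic against regular, DMSO), genes raised by 1 in 49 and 50, genes lowered by 1 in 49 and 45, and 5 and 9 unchanged genes were called. Far fewer genes were changed in the simulation than were called for the ischemic condition, so these rates need not carry over to the data. The alternatives were an unadjusted p, a fold of at least 1.5, a mean of at least 1 CPM, centring on the median, quantile normalization, no trend, voom on the whole reads, the replicate number as a block, the groups of a comparison alone, and each library left out. A crossed block was added after seeing the data. Figures were drawn with matplotlib 3.10.9.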

Additional observations from a re-analysis of the deposited data

Results flagged for a closer look

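The effect of an inhibitor differed between regular and ischemic culture, by the interaction term of limma on the log2 scale, for 4 members with MK25 and for 1 with VX745. Over all genes 10.5% had a positive and 13.9% a negative interaction with MK25, and 5.78% and 6.0% with VX745. With MK25 the interaction was -1.10 for PMAIP1, -0.45 for BCL2L1, -0.30 for MCL1 and 0.50 for BCL2L11, and with VX745 it was 0.37 for MCL1. The MK25 calls for MCL1 and BCL2L11 were lost with quantile normalization. With 1 library left out, the value for BCL2L11 ran from 0.31 to 0.70. A negative value means that the inhibitor lowered the gene more, or raised it less, under the ischemic condition than in regular culture.

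Other genes of the family differed in the same way. With MK25 the interaction was -2.08 for BNIP3, -1.65 for BNIP3L, -0.25 for BCL2L13 and 0.69 for BMF. With VX745 it was -0.48 for BNIP3, -0.38 for BNIP3L and 0.73 for BCL2A1. For BNIP3 and BNIP3L with MK25 the log2 fold change against DMSO was 1.90 and 1.63 in regular culture, and -0.18 and -0.02, neither of which passed, under the ischemic condition.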

How the results depend on the processing

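At a fold of at least 1.5, the count was 5 for the ischemic condition with DMSO, 4 with VX745 and 5 with MK25, 1 for MK25 under it, 0 for VX745 in regular culture, 1 for MK25 against VX745, and 0 and 1 for the interactions of VX745 and MK25. At an unadjusted p it was 2 for VX745 in each culture, 3 for MK25 in regular culture, 1 for MK25 against VX745 in regular culture, against 0 adjusted, and 3 for the interaction of VX745. Shares of all genes past the fold or the unadjusted threshold were not counted, so these member counts cannot be set against a background. Quantile normalization gave 1 member for VX745 under the ischemic condition and 2 for the interaction of MK25, centring on the median gave 2 for the interaction of VX745, and the groups alone gave 1 for VX745 under the ischemic condition. MCL1 with VX745 in regular culture was lost (0 called) with no trend of the variance, with voom and with the groups alone. In that comparison the calls over all genes, 25 higher and 22 lower, were 4 and 2 with no trend, 3 and 10 with voom and 1 and 8 with the groups alone, so its background is as unsure as its member. Calls over all genes also differed by over 1.5 times with no trend for MK25 in regular culture (598 and 281), MK25 against VX745 there (345 and 73) and the interaction of VX745 (384 and 210), with quantile normalization for that interaction (590 and 436), and with the groups alone for MK25 (416 and 338) and MK25 against VX745 (379 and 114) in regular culture. The cause was not tested.

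With 1 library left out, the total of calls over all genes changed by over 1.5 times in 6 comparisons. For VX745 in regular culture they were 208 higher and 138 lower without regular DMSO replicate 1, 3 and 7 without replicate 2, 7 and 6 or 2 and 10 without regular VX745 replicate 1 or 2, 8 and 17 without either ischemic VX745 library, and 11 and 20 without ischemic MK25 replicate 2. For MK25 there, 981 and 731 became 520 and 303 without regular DMSO replicate 2 and 598 and 462 without regular MK25 replicate 1. For VX745 under the ischemic condition, 1958 and 2093 became 1234 and 1162 without ischemic DMSO replicate 1, and 1093 and 1098 or 1197 and 1117 without ischemic VX745 replicate 1 or 2. For MK25 against VX745, 1153 and 1427 under the ischemic condition became 672 and 707 or 580 and 743 without VX745 replicate 1 or 2 and 726 and 881 or 721 and 936 without MK25 replicate 1 or 2, and 556 and 200 in regular culture became 353 and 37 without VX745 replicate 2 and 379 and 116 without MK25 replicate 2. The interaction of VX745, 811 and 842, became 448 and 443 without regular DMSO replicate 2, 411 and 429 without regular VX745 replicate 1, 407 and 332 without ischemic DMSO replicate 1, and 327 and 274 or 420 and 366 without ischemic VX745 replicate 1 or 2.

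Among the members, counts ran from 0 to 1 for VX745 in each culture, 0 to 2 for MK25 in regular culture, 3 to 5 for MK25 against VX745, 1 to 2 for the interaction of VX745, 6 to 8 for the ischemic condition in untreated and in DMSO cells, and stayed at 4 for MK25 under it. The log2 fold change of PMAIP1 in untreated cells ran from -0.12 to 0.60, and that of BAD from -0.31 to 0.0920 with DMSO, -0.0785 to 0.36 with VX745 and -0.0790 to 0.37 with MK25. For VX745 under the ischemic condition it crossed 0 for BAX (-0.0296 to 0.0465), BCL2L11 (-0.00447 to 0.16), BID (-0.23 to 0.0782) and PMAIP1 (-0.0179 to 0.10), and it was -0.00885 for BAX with centring, 0.0260 for BCL2L1 and -0.0689 for BCL2L11 with quantile normalization. As a log2 ratio of the sums per kb, the balance was 0.0569, 0.22, -0.0279 and 0.0358 in regular untreated, DMSO, VX745 and MK25 cells, and 0.72, 0.80, 0.77 and 0.52 in the ischemic ones, and with quantile normalization the difference of means was 2.11 in ischemic DMSO cells.

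Deviations of same-numbered libraries correlated from -0.27 to 0.32 over 15 pairs of groups of the second experiment, so replicate numbers showed no common pairing there. In the first experiment they correlated at 0.27 in the only pair of groups, which cannot decide whether the numbers pair the samples. With the replicate block, 2 members passed for VX745 under the ischemic condition (BCL2 and BAD), beside 1919 higher and 2078 lower of 14024 genes. The member counts of the other 11 comparisons were as without the block. A crossed block within pairs of groups was chosen after seeing the data. It gave 3 members for VX745 under the ischemic condition, beside 2627 higher and 3194 lower of 14024 genes. For MK25 there it gave 5 members, beside 3569 and 3912 genes. For the ischemic condition with VX745 it gave 9 members, beside 5227 and 5043 genes.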
